A study of Mus musculus with 15 samples.

Results

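Day 6 embryoid bodies (EBs) of the NSD1-dTAG line were compared with stem cells of the same line, both without the degrader dTAG-13. The comparison takes 6 of the 15 libraries of the series, 3 of NSD1-dTAG mouse embryonic stem cells (mESCs) and 3 of NSD1-dTAG EBs, chosen by their labels alone. The line descends from E14 mESCs and carries a knockin of a degron tag at NSD1, a methyltransferase for lysine 36 of histone H3. Its labels do not tell whether it is 1 clone. No library of either group had dTAG-13, and the other 9 libraries of the series, wild-type mESCs with or without dTAG-13 and EBs with dTAG-13, served only in alternative fits. The mESCs grew on gelatin in 2i/LIF medium, which holds 1 µM of a MEK inhibitor, 3 µM of a GSK3 inhibitor and the cytokine LIF. EBs are aggregates that form in suspension, here over 6 days in GMEM with 10% serum, a medium listed without the inhibitors and LIF. Stage, medium and culture form thus change together. Spike-in RNA made up 0.292% to 0.496% of counts in the mESC libraries and 0 in the EB libraries, although the labels list spike-in RNA for both, so library preparation changed with them, and these cannot be told apart. No label tells whether the biological replicates of a group were separate cultures, so the p-values reflect only how far these libraries differ among themselves. The RNA came from bulk samples, in which fewer cells of a type and less RNA per cell cannot be told apart.

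As background, 2i/LIF holds mESCs in a naive state that resembles the epiblast of the blastocyst before implantation. Cells that leave it pass through a formative state, which resembles the epiblast just after implantation, before they take on germ layer fates. In EBs an outer layer of visceral endoderm can form around epiblast-like cells, and genes of the primitive streak mark the earliest mesoderm and endoderm.

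Of 15193 genes tested, 9037 (59.5%) were called at an adjusted p below 0.05, 5035 higher in EBs (33.1%) and 4002 lower (26.3%). With a fold change of at least 2 required as well, 3644 genes (24.0%) were higher and 1646 (10.8%) were lower, and gene groups are counted by this rule ("2-fold calls") unless another is named, so that these shares are their background. The 3 values of a group did not overlap those of the other group for 10286 genes (67.7%). Levels are gene counts scaled to a common library size, in CPM, after edgeR's TMM scaling, always in the order of libraries 1, 2 and 3, and fold changes are log2 values of EBs over mESCs. The median over all genes tested was 0.02, and 0.16 with library totals alone, which gave 5653 genes higher and 3029 lower. Gene counts per library ranged from 24562484 to 29103958. mESC library 1 and EB library 3 stood apart from their groups: their read-weighted exon length was 4.99 and 5.48 kb against 5.74 to 5.84 kb in the others, and ribosomal protein genes held 8.88% and 7.0% of counts against 5.24% to 5.90%. Without both, 11314 genes were called. The wild-type mESCs, used in place of the tagged mESCs, changed the calls of few of the genes named here and their size more often: 44 of 194 genes with more than 3 counts in each group moved by over 1.5 times, and 1 turned direction. Unless stated, the 2 groups' values did not overlap for a gene named as risen or fallen. 

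The naive pluripotency genes fell. Of 22 genes on that list 19 were lower by a 2-fold call and 1 was higher, with a median of -2.23, and their summed share of gene counts went from 0.688%, 0.699% and 0.696% in the mESC libraries to 0.194%, 0.195% and 0.166% in the EB libraries. Tfcp2l1, a transcription factor of the naive network, fell from 676, 1324 and 1293 to 73.4, 83.4 and 44.2 CPM (log2 -4.03, SE 0.34, adjusted p = 2.4e-05). Its partner Esrrb, an orphan nuclear receptor, fell less, from 593, 809 and 777 to 171, 182 and 124 CPM (log2 -2.19, SE 0.19, adjusted p = 2.5e-05). Fgf4, the growth factor that mESCs secrete, fell from 229, 216 and 219 to 33.7, 28.8 and 35.7 CPM (log2 -2.76). Jam2, a junctional adhesion molecule of naive cells, had the largest fall of the list, from 283, 299.8 and 320.4 to 10.7, 10.2 and 8.37 CPM (log2 -4.95, SE 0.14, adjusted p = 3.5e-07). The transcription factors Tbx3 and Gbx2 fell by 3.45 and 3.39 in log2, and Nr5a2, another nuclear receptor, fell by 2.48. The member that rose was Dppa3, a maternal factor of the early embryo and germ line, at 10.8, 3.96 and 6.57 CPM in mESCs and 15.2, 23.2 and 20.3 CPM in EBs (log2 1.46, SE 0.33, adjusted p = 0.0055). Genes that naive and later pluripotent cells share moved less. Of the core pluripotency list, 2 of 14 were higher and 2 lower by a 2-fold call, with a median of -0.17. By the adjusted p alone 3 were higher and 6 lower, beside a background of 33.1% and 26.3%. Utf1, a chromatin-bound protein of pluripotent cells, rose from 126, 111 and 92.2 to 300.3, 254 and 317 CPM (log2 1.40, SE 0.15, adjusted p = 8.2e-05). Gdf3, a NODAL-related ligand, fell from 133, 108 and 106 to 34.5, 31.8 and 41.6 CPM (log2 -1.68). The RNA-binding pluripotency gene Lin28a rose by 0.52 in log2.

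Formative and primed epiblast genes rose as a group: 18 of 21 were higher by a 2-fold call and 2 lower, with a median of 3.25. Pou3f1, a POU factor of the postimplantation epiblast, rose from 1.94, 1.79 and 1.43 to 97.1, 75.6 and 138 CPM (log2 5.90, SE 0.28, adjusted p = 1.3e-06). Pim2, a serine/threonine kinase, stood at 8.94, 9.23 and 9.81 CPM in mESCs and 332, 343 and 680.4 CPM in EBs (log2 5.60, SE 0.32, adjusted p = 3.3e-06). Dnmt3b, a de novo DNA methyltransferase, rose from 98.4, 129 and 125 to 664, 657 and 1199 CPM (log2 2.84, SE 0.26, adjusted p = 3.7e-05). All 3 genes were highest in EB library 3, the library that stands apart. Fgf5, the epiblast growth factor, had 1 count over the mESC libraries and 188, 210.0 and 178 CPM in the EB libraries. Cldn6, a tight junction claudin of the epiblast, rose from 1.38, 1.42 and 1.18 to 236, 182 and 219 CPM (log2 7.31, SE 0.18, adjusted p = 2.5e-07) and varied little among EB libraries. Grhl2, a factor of epithelial genes, rose by 4.86 and Lin28b, the paralogue of Lin28a, by 3.06 in log2. The 2 genes that fell were the forkhead factor Foxd3 (56.4, 51.6 and 49.7 to 21.7, 20.3 and 28.8 CPM) and the ETS factor Etv4 (137, 125 and 116 to 42.9, 44.8 and 35.2 CPM).

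**Figure D1:**
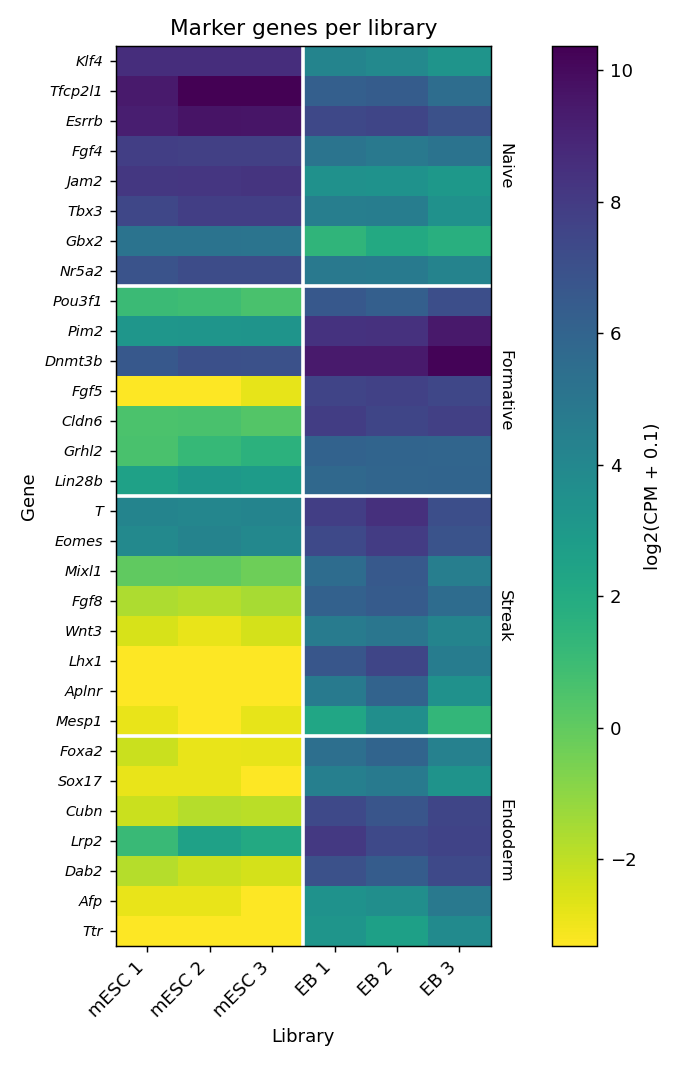
Level of 30 marker genes in each library, as log2(CPM + 0.1) on a colour scale, with the 3 mESC libraries on the left and the 3 EB libraries on the right. Naive genes such as Klf4 are paler in all EB libraries, while the epiblast, streak and endoderm genes are paler in all mESC libraries, and every streak gene shown is darkest in EB library 2.

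Most tested genes of the primitive streak, the endoderm and the extraembryonic endoderm were higher in EBs. Of the streak and mesendoderm list, 22 of 28 tested genes were higher and 2 lower, with a median of 4.09. T, the T-box factor of nascent mesoderm, rose from 17.9, 16.8 and 17.9 to 228, 355 and 133 CPM (log2 3.77, SE 0.34, adjusted p = 3.2e-05). Mixl1, a homeobox factor of mesendoderm, rose from 0.931, 0.971 and 0.716 to 46.1, 92.3 and 22.7 CPM (log2 5.93, SE 0.57, adjusted p = 4.9e-05; log2 5.29 without EB library 2). Fgf8, an FGF ligand of the streak, was at 0.223, 0.187 and 0.253 CPM in mESCs and 70.3, 87.9 and 45.3 CPM in EBs (log2 8.24, SE 0.36, adjusted p = 1.1e-06). Wnt3, the WNT ligand that starts the streak, rose from 0.0745, 0.0374 and 0.0842 to 25.6, 31.8 and 18.5 CPM (log2 8.51, SE 0.37, adjusted p = 1.1e-06). Lhx1, a LIM homeobox factor of anterior mesendoderm, Aplnr, the apelin receptor of early mesoderm, and Msgn1, a bHLH factor of presomitic mesoderm, had 0 counts in all mESC libraries. In the EB libraries Aplnr reached 27, 63.9 and 10.7 CPM, at least 888-fold higher. Msgn1 reached 1.36, 3.29 and 0.39 CPM, at least 44.1-fold higher. Mesp1, a bHLH factor of early cardiac mesoderm, had 2 counts in mESCs and 4.65, 12.1 and 2.38 CPM in EBs (ratio of EBs over mESCs 250.2, counting interval 68.9 to 2071). The list also held a gene that fell, the caudal homeobox gene Cdx1, from 35.9, 22.6 and 24.1 to 1.04, 1.44 and 0.709 CPM (log2 -4.68, SE 0.30, adjusted p = 5.1e-06).

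Of 16 tested genes of definitive endoderm and axial mesoderm, 14 were higher and 0 lower. Foxa2, a forkhead pioneer factor of endoderm, rose from 0.112, 0.0374 and 0.0421 to 41.1, 63 and 20.0 CPM (log2 9.22, SE 0.66, adjusted p = 9.3e-06; log2 9.84 without mESC library 1). Sox17, an HMG-box factor of endoderm, had 2 counts in mESCs and 21.9, 27.2 and 10.1 CPM in EBs (ratio of EBs over mESCs 769, counting interval 213 to 6356). Chrd, the BMP antagonist chordin made by the node, rose from 2.72, 2.13 and 1.77 to 15.3, 15.2 and 5 CPM (log2 2.42, SE 0.43, adjusted p = 0.0014). Epcam, an epithelial surface protein, rose from 36.3, 25.8 and 23.9 to 261, 210.3 and 272 CPM (log2 3.11, SE 0.19, adjusted p = 4.6e-06). Among visceral and parietal endoderm genes, 31 of 38 were higher and 1 lower, with a median of 6.43 (6.11 with genes absent from a group at their bound). The genes of endocytic uptake were among the largest: Cubn (cubilin) rose from 0.112, 0.187 and 0.168 to 166, 107 and 185 CPM (log2 9.90, SE 0.34, adjusted p = 5.4e-07). Its partner receptor Lrp2 (megalin) stood at 2.01, 5.6 and 4.13 CPM in mESCs and 277, 164 and 199 CPM in EBs (log2 5.77, SE 0.39, adjusted p = 6.5e-06). The adaptor Dab2 rose from 0.186, 0.112 and 0.0842 to 127, 82.7 and 163 CPM (log2 9.86, SE 0.40, adjusted p = 8.3e-07). Secreted products were also among the members. Afp (alpha-fetoprotein) had 2 counts in mESCs and 10.3, 12 and 28.6 CPM in EBs (ratio of EBs over mESCs 653, counting interval 180.5 to 5397), and Ttr (transthyretin) had 0 counts in mESCs and 9.37, 5.98 and 13.8 CPM in EBs, at least 249-fold higher. Apoa4, an apolipoprotein, was at least 81.3-fold higher at 2.97, 2.69 and 3.83 CPM. Col4a1 and Col4a2, the 2 main chains of basement membrane collagen, rose together, Col4a1 from 1.97, 3.59 and 3.2 to 309.9, 220.0 and 306 CPM (log2 6.58, SE 0.27, adjusted p = 8.3e-07) and Col4a2 from 0.856, 1.08 and 1.01 to 169, 115 and 157 CPM (log2 7.22, SE 0.22, adjusted p = 3.5e-07). Trf (transferrin), the member that fell by a 2-fold call, fell from 7, 6.28 and 6.02 to 2.57, 1.78 and 3.19 CPM (log2 -1.36).

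The EB libraries did not vary alike across lineages. The median SD of log2 CPM over the 3 EB libraries was 0.17 for all genes tested, 0.67 for the streak list, 0.67 for definitive endoderm and axial mesoderm, 0.41 for visceral and parietal endoderm and 0.20 for the formative list. Of the 22 streak genes higher by a 2-fold call, 20 were highest in EB library 2 and 20 were lowest in EB library 3. By comparison, 31.0% of all 3644 genes higher by that rule were highest in library 2, 29.0% were lowest in library 2 and 49.4% were lowest in library 3. The level in library 2 over that in library 3 was 2.67 for T, 7.43 for Lhx1 and 4.07 for Mixl1. Of the 31 such genes of visceral and parietal endoderm, 18 were lowest in library 2, 15 were highest in library 3 and 7 were highest in library 2. Another 9 were lowest in library 3. Some members thus had the pattern of the streak genes: Foxa2, Gata6 and Sox17 were highest in library 2 and lowest in library 3. Foxa2 and Sox17 are also on the definitive endoderm list. The level in library 2 over that in library 3 was 0.419 for Afp, 0.579 for Cubn and 0.509 for Dab2. These ratios compare libraries of 1 group and have no test.

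**Figure D2:**
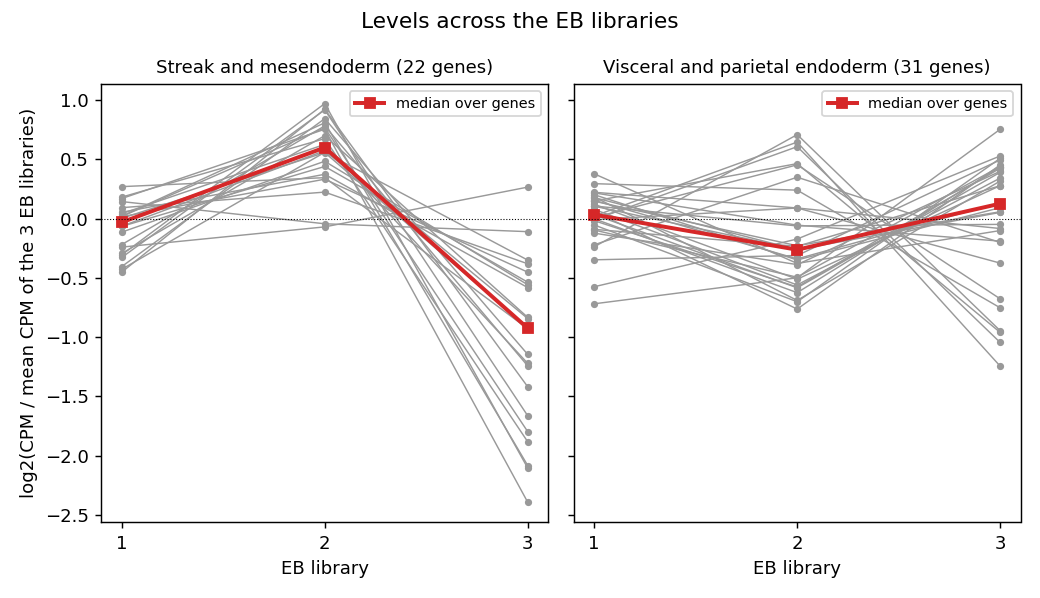
Level in each EB library of the 22 streak and mesendoderm genes (left) and 31 visceral and parietal endoderm genes (right) that were higher by a 2-fold call, as log2 of CPM over the gene's mean CPM in the 3 EB libraries; grey lines join the 3 values of a gene, the red line is their median and the libraries have no order. On the left 20 genes peak in EB library 2, and on the right 18 genes are lowest there.

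Other lineage lists were called in part. Of 16 trophoblast genes 13 were tested, and 9 were higher and 1 lower. Peg10, a retrotransposon-derived imprinted gene of the placenta, rose from 51.9, 77.3 and 80.8 to 2407, 2117 and 1110 CPM (log2 4.75, SE 0.34, adjusted p = 9e-06), but the trophoblast markers Elf5, Tpbpa and Prl3d1 had 16, 0 and 0 counts over the 3 EB libraries. Of 20 tested neural genes 12 were higher and 4 lower. Nes (nestin), an intermediate filament of progenitors and other cells, stood at 3.35, 3.51 and 3.75 CPM in mESCs and 235, 154 and 179 CPM in EBs (log2 5.74, SE 0.20, adjusted p = 5.5e-07). Pax6, a neural and eye factor, rose from 0.298, 0.261 and 0.126 to 6.65, 5.57 and 6.03 CPM (log2 4.69, SE 0.28, adjusted p = 3.8e-06). Map2, a microtubule protein of neurons, rose from 0.931, 1.57 and 1.9 to 21.5, 23.7 and 23.2 CPM (log2 3.96). The neural progenitor factor Sox1 stayed low and was not called, at 2.46, 3.4 and 3.12 CPM in mESCs and 0.751, 2.82 and 2.48 CPM in EBs, and the values of the groups overlapped. Tubb3, the neuronal tubulin, fell from 54.8, 47.7 and 47.5 to 7.08, 8.16 and 12.5 CPM (log2 -2.44, SE 0.21, adjusted p = 2.9e-05). Dcx and Neurog2, markers of young neurons and their progenitors, were below the filter, with 11 and 0 counts in EBs. Of 14 surface ectoderm genes 9 were tested and 6 were higher. They include the simple epithelial keratins Krt8 (21, 14.1 and 13.6 to 380.2, 287 and 157 CPM) and Krt18 (4.51, 3.06 and 3.12 to 330.1, 227 and 161 CPM), which are not specific to ectoderm, while the epidermal keratins Krt5 and Krt14 had 2 and 41 counts in EBs. Tfap2a, a factor of surface ectoderm and neural crest, fell from 29.4, 33.7 and 35.9 to 4.22, 2.45 and 1.45 CPM (log2 -3.61, SE 0.33, adjusted p = 3.4e-05).

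Globin genes and the cardiomyocyte markers Tnnt2 and Nkx2-5 were absent or near the limit of detection, while other mesoderm and blood genes were called in part. Of 16 paraxial mesoderm genes 7 were tested, and 6 were higher, among them Dll3, a NOTCH ligand of somite formation, from 2.27, 2.05 and 2.48 to 12.4, 22.5 and 7.06 CPM (log2 2.63, SE 0.41, adjusted p = 0.00068). Of 21 lateral and cardiac mesoderm genes 14 were tested, with 9 higher and 5 lower. Tagln, an actin-binding protein of smooth muscle and early mesenchyme, rose from 0.112, 0.112 and 0.0421 to 161, 125 and 124 CPM (log2 10.49, SE 0.26, adjusted p = 2.7e-07), and Acta2, smooth muscle actin, was at 0 counts in mESCs and at 9.94, 12.6 and 5.57 CPM in EBs, at least 243-fold higher. The cardiomyocyte markers Tnnt2 and Nkx2-5 had 12 and 8 counts over the EB libraries. The cardiac actin gene Actc1 was higher in EBs, with 1 count in mESCs (ratio of EBs over mESCs 468, counting interval 83.6 to 18522). Of 29 endothelial and blood genes 16 were tested, with 9 higher and 3 lower. Among them, 4 of the 6 tested blood genes were higher and 2 lower. Flt1, a VEGF receptor of endothelium and trophoblast, rose from 0.0372, 0.0374 and 0.0842 to 61.6, 71 and 23.5 CPM (log2 9.85, SE 0.67, adjusted p = 7.3e-06), while the endothelial cadherin Cdh5 reached 1, 1.01 and 0.674 CPM. The globin genes Hbb-bh1, Hba-x, Hbb-y and Hba-a1 had 0 counts in all 6 libraries, which allows at most 0.0388 CPM in mESCs and 0.0349 CPM in EBs (3 counts over a group; counting error only). Of 12 immune cell markers 9 were below the filter, with at most 22 counts over the EB libraries. No gene of the 2-cell-like list passed the filter. Germ cell genes rose in part, 12 of 21 higher and 2 lower: Sycp3, a meiotic chromosome protein, stood at 3.98, 2.91 and 2.86 CPM in mESCs and 42.8, 29.9 and 47.4 CPM in EBs (log2 3.62, SE 0.23, adjusted p = 4.9e-06). Mael, a piRNA pathway gene, rose from 1.68, 1.27 and 0.927 to 11.4, 7.89 and 12.7 CPM (log2 3.04, SE 0.27, adjusted p = 3.4e-05). Kit, the receptor of stem cell factor, fell from 341, 418 and 445 to 65, 85 and 43.5 CPM (log2 -2.64, SE 0.24, adjusted p = 3.7e-05).

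Transcription factor families differed in how many members were called. Of 5 tested GATA factors 5 were higher, of 30 forkhead factors 15 were higher and 2 lower, of 27 bHLH factors 17 and 4, of 14 SOX factors 8 and 1, and of 25 AP-1 and ATF factors 13 and 0. Members can pass the filter through the EB libraries alone, and 30 of 44 forkhead, 27 of 55 bHLH and 14 of 19 SOX genes passed. Jun, the AP-1 subunit, rose from 1.49, 1.53 and 1.43 to 69.5, 42.6 and 36.6 CPM (log2 5.06, SE 0.29, adjusted p = 3e-06). In the HOX and CDX family 11 of 42 genes passed the filter, and of these 8 were lower and 1 was higher, a count that leaves out most of the family. Hoxc13, a posterior HOX gene, fell from 10.9, 10.0 and 10.5 to 0.679, 0.705 and 0.567 CPM (log2 -4.00, SE 0.18, adjusted p = 1.1e-06). Of the 31 HOX and CDX genes below the filter, 18 had more counts summed over the EB libraries than over the mESC libraries, 8 had fewer and 5 had as many. Hoxb1 had the highest sum in EBs, 108 counts against 0 in mESCs. KLF and SP factors were split, 7 higher and 7 lower of 24, and ETS factors had 2 higher and 5 lower of 21. Some homeobox transcripts of mESCs fell to low levels: Nkx6-3 went from 22.6, 20.6 and 17.6 CPM to 2 counts over the EB libraries (ratio of mESCs over EBs 875, counting interval 242 to 7235), Nkx1-2 fell from 58.7, 62.8 and 72.5 to 2.11, 4.5 and 2.62 CPM (log2 -4.39, SE 0.27, adjusted p = 4.4e-06) and Pou2f3, a POU factor, from 32.7, 39.4 and 43.2 to 0.751, 0.907 and 0.851 CPM (log2 -5.51, SE 0.18, adjusted p = 5e-07). The TALE factor Pbx3, a cofactor of HOX proteins, rose by 3.88 in log2. The large zinc finger family (ZFP) had 45 of 369 higher and 47 lower. Zfp608 stood at 0.149, 0.187 and 0.126 CPM in mESCs and 54.6, 58 and 56.3 CPM in EBs (log2 8.46, SE 0.18, adjusted p = 2.5e-07). Zfp57, which protects imprinted methylation, fell from 296, 285 and 310.1 to 45.7, 37.4 and 23 CPM (log2 -3.07, SE 0.24, adjusted p = 1.5e-05).

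**Figure D3:**
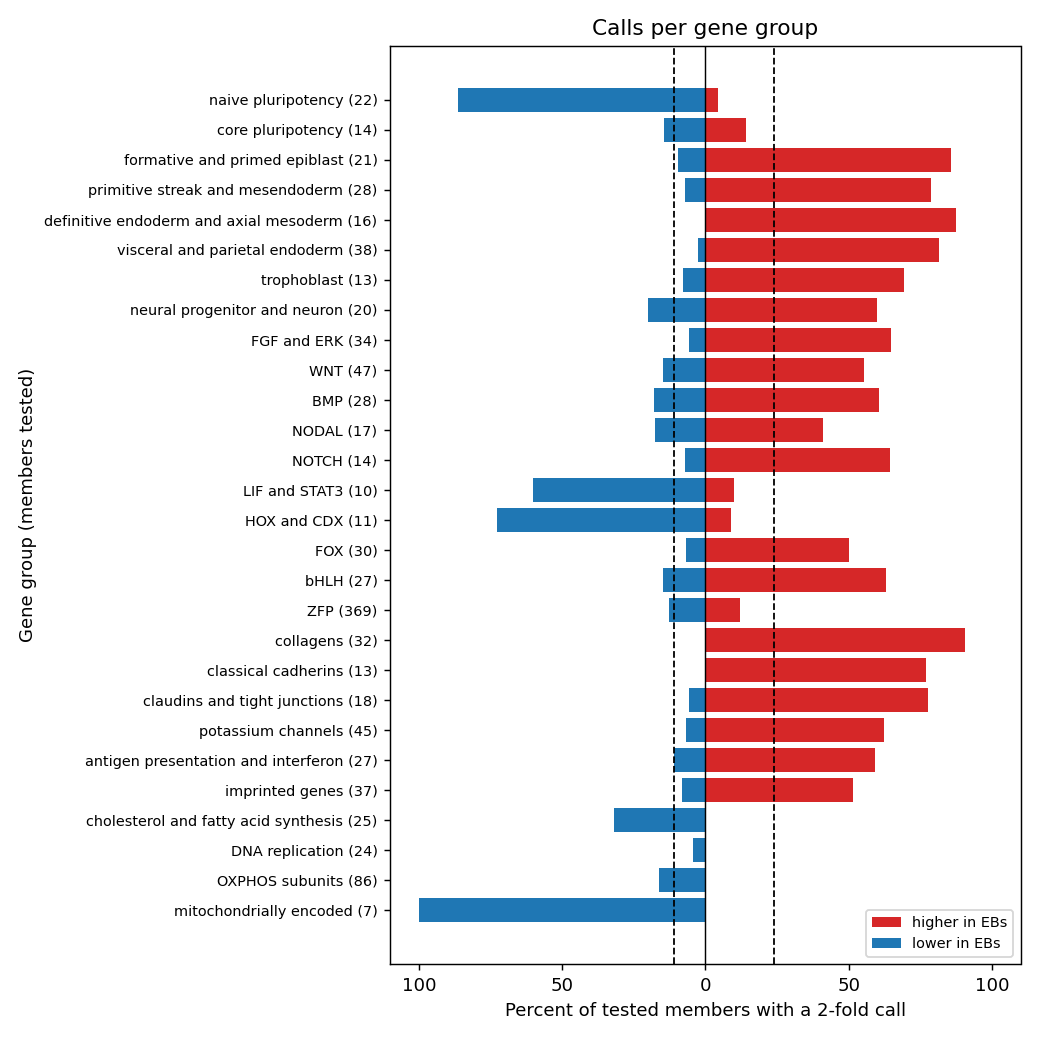
Percent of tested members of 28 gene lists and families that were higher (right of 0) or lower (left of 0) in EBs by a 2-fold call, with the number tested beside each name; dashed lines are the shares over all genes tested, 24.0% and 10.8%. Endoderm, collagen, claudin and cadherin groups extend far past the right line, and naive, HOX and mitochondrially encoded genes past the left one.

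In the FGF pathway, in which ligands signal through receptor kinases to ERK, 22 of 34 genes were higher and 2 lower. All 6 receptor genes on the list were higher. Fgfr1 rose from 57, 68.6 and 70.2 to 134, 136 and 127 CPM (log2 1.02, SE 0.12, adjusted p = 0.00012). Fgfr2 rose from 0.335, 0.822 and 0.884 to 26.1, 26.2 and 20.2 CPM (log2 5.15, SE 0.29, adjusted p = 3.1e-06). Of 19 feedback and target genes 11 were higher and 1 lower, with a median of 1.12. Dusp6, a feedback phosphatase of ERK, rose from 55.2, 56.1 and 50.6 to 256, 261 and 244 CPM (log2 2.23, SE 0.10, adjusted p = 1.3e-06). Dusp4 rose from 3.5, 6.28 and 4.25 to 259, 264 and 218 CPM (log2 5.72, SE 0.24, adjusted p = 8.5e-07). Dusp5 rose from 1.41, 0.971 and 0.969 to 58.3, 44.7 and 28.8 CPM (log2 5.29, SE 0.32, adjusted p = 4.1e-06). The mESC medium holds a MEK inhibitor, which is not listed for the EB medium, and its part in these levels was not tested. Spry2, another feedback inhibitor, rose by 1.17 in log2. The LIF and STAT3 list had 6 of 10 lower and 1 higher. Socs3, the feedback inhibitor that STAT3 induces, stood at 134, 137 and 133 CPM in mESCs and 14.9, 10.6 and 9.96 CPM in EBs (log2 -3.51, SE 0.17, adjusted p = 1.6e-06). Stat3 itself fell from 119, 154 and 154 to 40.8, 31.3 and 24.4 CPM (log2 -2.14, SE 0.20, adjusted p = 4.3e-05). Bcl3, a nuclear IκB protein, fell by 3.36 and the receptor gene Lifr by 1.86 in log2. The EB medium lists no LIF, and the part of LIF in these levels was not tested.

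Of 47 tested WNT pathway genes 26 were higher and 7 lower. Of 9 tested ligands 8 were higher and 0 lower, with a median of 6.37 (4.87 with absent genes at their bound): Wnt8a, a ligand of the posterior epiblast, rose from 0.149, 0.187 and 0.0421 to 32.6, 36.7 and 46.3 CPM (log2 8.17, SE 0.31, adjusted p = 7.2e-07), and Wnt4 had 0 counts in mESCs and 9.01, 6.04 and 4.4 CPM in EBs, at least 167-fold higher. Among receptors Fzd7 rose from 57.9, 87.3 and 72.9 to 252, 248 and 283 CPM (log2 1.84, SE 0.16, adjusted p = 2.8e-05) and Fzd2 from 4.51, 5.01 and 5.31 to 66.4, 70.8 and 68.2 CPM (log2 3.79, SE 0.12, adjusted p = 4.8e-07). Fzd5 fell from 123, 201 and 195 to 35.1, 32.2 and 27.4 CPM (log2 -2.46, SE 0.21, adjusted p = 2.3e-05). Target and feedback genes were split, 6 higher and 4 lower of 15. Axin2, a general feedback target of WNT, fell from 97.6, 134 and 138 to 46.2, 54.8 and 41.3 CPM (log2 -1.38, SE 0.17, adjusted p = 0.00019). Nkd1, another feedback gene, rose from 1.97, 2.32 and 1.77 to 10.6, 15.9 and 9.72 CPM (log2 2.58, SE 0.24, adjusted p = 4e-05). The secreted inhibitors were split as well: Dkk1 rose from 0.298, 0.486 and 0.211 to 12, 17.6 and 6.31 CPM (log2 5.14, SE 0.48, adjusted p = 4.3e-05). Sfrp1 fell from 156, 174 and 172 to 27.3, 41.5 and 25.4 CPM (log2 -2.41, SE 0.19, adjusted p = 1.8e-05). The GSK3 inhibitor of the mESC medium, which stabilises beta-catenin, is not listed for the EBs, and its part in these levels was not tested.

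In the TGF-beta superfamily, BMP genes were called more often than NODAL genes, 17 higher and 5 lower of 28 against 7 and 3 of 17, a difference that was not tested. Of BMP ligands and antagonists 12 of 14 were higher. Bmp2 had 2 counts in mESCs and 14.7, 17.2 and 4.22 CPM in EBs (ratio of EBs over mESCs 469, counting interval 129 to 3874), while Bmp4 was the member that fell, from 29.1, 29.8 and 27.8 to 10.4, 11.3 and 5.64 CPM (log2 -1.67, SE 0.24, adjusted p = 0.00045). Id1, a dominant-negative HLH target of BMP, rose from 10.6, 8.48 and 7.62 to 58.7, 60.3 and 52.6 CPM (log2 2.68, SE 0.15, adjusted p = 3.1e-06), and its relative Id4 fell by 2.76 in log2. Msx1, a homeobox target, rose from 0.745, 0.672 and 0.337 to 16.1, 25.4 and 8.23 CPM (log2 4.80, SE 0.49, adjusted p = 6.9e-05). Nodal rose by 0.61 and its antagonist Lefty1 by 1.29 in log2, from 50.6, 32.9 and 36.4 to 108, 94.6 and 90.4 CPM (log2 0.62 against wild-type mESCs). Fst (follistatin), which binds activin, rose from 54, 36.6 and 39.5 to 139.9, 208 and 142 CPM (log2 1.91, SE 0.21, adjusted p = 0.0001).

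Retinoic acid genes had 9 of 16 higher and 3 lower. The hydroxylase gene Cyp26a1, which breaks down retinoic acid, stood at 0 counts in mESCs and at 116, 179 and 48.3 CPM in EBs, highest in EB library 2. Dhrs3, a retinaldehyde reductase, rose from 0.112, 0.224 and 0.0842 to 8.26, 7.49 and 9.89 CPM (log2 5.87, SE 0.31, adjusted p = 2.2e-06). NOTCH genes had 9 of 14 higher and 1 lower. Notch3 was at 8.6, 17 and 16 CPM in mESCs and 153, 152 and 116 CPM in EBs (log2 3.34, SE 0.26, adjusted p = 1.6e-05). The ligand Dll1 rose from 0.112, 0.112 and 0.0842 to 6.79, 12.6 and 4.54 CPM (log2 6.21, SE 0.55, adjusted p = 3.1e-05). The target Nrarp rose from 2.49, 2.5 and 2.65 to 14.9, 21 and 9.93 CPM (log2 2.58, SE 0.28, adjusted p = 9.2e-05). In the Hedgehog pathway 3 of 9 were higher and 4 lower. The signal transducer Smo rose from 11.8, 16.6 and 16.1 to 84.9, 103 and 112 CPM (log2 2.75, SE 0.17, adjusted p = 5.1e-06). Gli1, the target gene used as the readout of the pathway, fell from 33.2, 45.1 and 46.8 to 4.36, 6.28 and 4.15 CPM (log2 -3.08, SE 0.21, adjusted p = 8e-06). Hippo effectors and targets had 9 of 15 higher and 1 lower: Ccn1 and Ccn2, matricellular targets of YAP, rose from 10.9, 9.71 and 10.2 to 263, 163 and 141 CPM (log2 4.20, SE 0.25, adjusted p = 3.8e-06) and from 25.9, 23.1 and 21.3 to 225, 154 and 220.4 CPM (log2 3.09, SE 0.18, adjusted p = 3.1e-06). Amot, an angiomotin that binds YAP, rose from 2.42, 4.11 and 5.22 to 477, 563 and 179 CPM (log2 6.70, SE 0.52, adjusted p = 1.5e-05) and was lowest in EB library 3. Insulin and IGF genes had 11 of 16 higher and 0 lower. Igfbp3, an IGF-binding protein, rose from 7.45, 6.28 and 7.03 to 291, 231 and 144 CPM (log2 5.0, SE 0.28, adjusted p = 2.7e-06). Irs2, a receptor substrate, stood at 10.6, 15.5 and 14.2 CPM in mESCs and 153, 132 and 105 CPM in EBs (log2 3.27, SE 0.20, adjusted p = 4.1e-06).

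Within the extracellular matrix, collagens were among the most changed gene groups. Of 32 tested collagen genes 29 were higher and 0 lower, with a median of 3.50. The other 12 of 44 collagen genes were not tested, and a gene can pass the filter through the EB libraries alone. Collagens held 0.0245%, 0.0329% and 0.0343% of gene counts in the mESC libraries and 0.127%, 0.109% and 0.113% in the EB libraries (ratio 3.81; exact permutation p = 0.1, two-sided, the smallest that 3 against 3 can give). Col1a1, a fibrillar chain, reached 5.65, 6.25 and 2.84 CPM. Serpinh1, the collagen chaperone HSP47, rose from 5.73, 5.9 and 5.05 to 236, 232 and 239.7 CPM (log2 5.40, SE 0.12, adjusted p = 2.5e-07). Laminins and nidogens were split, 4 higher and 2 lower of 13, or 30.8% and 15.4% beside 24.0% and 10.8% of all genes tested. Lamb1 rose from 17.7, 23.9 and 23.8 to 375, 311 and 283 CPM (log2 3.89, SE 0.18, adjusted p = 1.2e-06). Nid1 fell from 163, 273 and 273 to 43.9, 37.3 and 29 CPM (log2 -2.68, SE 0.24, adjusted p = 3.3e-05). Matrix proteases and regulators had 13 of 18 higher and 2 lower. Mmp2, a gelatinase, rose from 1.64, 2.65 and 2.7 to 32.9, 32.9 and 29.8 CPM (log2 3.78, SE 0.20, adjusted p = 2.2e-06). Timp1, an inhibitor, fell from 41.7, 25.5 and 23 to 3.65, 2.82 and 4.15 CPM (log2 -3.09, SE 0.27, adjusted p = 2.8e-05).

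Cell adhesion families differed. Of 13 tested classical cadherins 10 were higher, of 18 claudins and tight junction genes 14 were higher and 1 lower, and of 27 protocadherins and FAT cadherins 13 were higher and 3 lower. These counts leave out many members, as 13 of 23, 18 of 33 and 27 of 74 genes of these families passed the filter. Members can pass it through the EB libraries alone. Cdh2, N-cadherin of mesoderm and neural tissue, rose from 1.75, 2.28 and 2.82 to 79.9, 144 and 46.5 CPM (log2 5.31, SE 0.45, adjusted p = 2.5e-05) and was highest in EB library 2. Cdh6, cadherin 6, had 0 counts in mESCs and 8.26, 9.13 and 9.82 CPM in EBs, at least 234-fold higher. The claudin Cldn7 rose from 1.71, 1.05 and 1.1 to 73.2, 49.3 and 63 CPM (log2 5.58, SE 0.25, adjusted p = 1.1e-06). Of 33 genes of the epithelial-mesenchymal transition list 25 were higher, and they belong to both sides of it. On the mesenchymal side Zeb2, a repressor of E-cadherin, rose from 0.112, 0.149 and 0.295 to 13.5, 19.6 and 11.5 CPM (log2 6.32, SE 0.36, adjusted p = 3.2e-06) and Snai1 from 2.72, 2.28 and 2.99 to 15.1, 29.1 and 9.26 CPM (log2 2.75, SE 0.41, adjusted p = 0.00055). On the epithelial side Esrp1, an epithelial splicing regulator, rose from 0.968, 1.08 and 1.39 to 172, 151 and 131 CPM (log2 7.05, SE 0.20, adjusted p = 3.3e-07). Vim (vimentin), a mesenchymal intermediate filament, fell from 496, 416 and 381 to 229, 285 and 138 CPM (log2 -0.99, SE 0.25, adjusted p = 0.0087). Itga3, the alpha chain of a laminin receptor, rose from 1.68, 2.32 and 2.11 to 210.2, 141 and 158 CPM (log2 6.38, SE 0.22, adjusted p = 5.5e-07). Of 10 tested gap junction genes 3 were higher and 4 lower. Gja1 (connexin 43) rose from 112, 140.2 and 131 to 504, 472 and 676 CPM (log2 2.11, SE 0.17, adjusted p = 1.7e-05). Keratins were split, 6 higher and 4 lower of 11, and their share of counts rose from 0.0250%, 0.0163% and 0.0173% to 0.0953%, 0.0673% and 0.0412%. Krt19 stood at 0.968, 0.635 and 0.379 CPM in mESCs and 176, 98.4 and 58.8 CPM in EBs (log2 7.37, SE 0.53, adjusted p = 9.4e-06), highest in EB library 1 (log2 8.04 without both libraries that stand apart), and Krt42, a keratin of mESCs, at 202, 121 and 131 CPM in mESCs and 1.75, 1.95 and 1.77 CPM in EBs (log2 -6.37, SE 0.25, adjusted p = 7.8e-07).

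Of 23 cytoskeletal genes 11 were higher and 2 lower. Tpm1, an actin-stabilising tropomyosin, rose from 69.3, 61.4 and 60.7 to 861, 687 and 599.8 CPM (log2 3.49, SE 0.16, adjusted p = 1.3e-06). Cnn2, a calponin, rose from 28.5, 24 and 25.2 to 328, 266 and 261 CPM (log2 3.46, SE 0.14, adjusted p = 8.5e-07). Myh10, nonmuscle myosin IIB, rose from 26.2, 48.9 and 46.2 to 329.7, 313 and 241 CPM (log2 2.87, SE 0.25, adjusted p = 2.8e-05). Tubulins were split, as Tubb6 rose by 2.40 and Tubb2b fell by 1.97. Kif1a, a kinesin motor best known from axonal transport, stood at 0.447, 0.299 and 0.463 CPM in mESCs and 188, 127 and 181 CPM in EBs (log2 8.67, SE 0.26, adjusted p = 3.5e-07). Kif21a, another kinesin, rose from 0.484, 0.486 and 0.337 to 49, 53.9 and 51.1 CPM (log2 6.86, SE 0.17, adjusted p = 2.7e-07). Among ephrins and their receptors 11 of 18 were higher and 1 lower: the ligand Efnb2 rose from 1.79, 1.83 and 1.39 to 82.8, 76 and 67.7 CPM (log2 5.49, SE 0.17, adjusted p = 3.5e-07), the receptor Epha1 from 9.05, 10.4 and 12.2 to 159.9, 172 and 177 CPM (log2 4.01, SE 0.14, adjusted p = 6.3e-07). Epha4 fell from 149, 203 and 208 to 25.3, 39 and 18.8 CPM (log2 -2.75, SE 0.27, adjusted p = 5.7e-05). Sema3e, a secreted semaphorin, rose from 0.372, 0.336 and 0.505 to 79.4, 66.4 and 63.2 CPM (log2 7.42, SE 0.20, adjusted p = 3.3e-07).

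Genes of ion channels and receptors of excitable cells were counted as families, many of them at low levels. Of 45 tested potassium channel genes 28 were higher and 3 lower, of 24 calcium and sodium channel genes 18 and 3, and of 19 glutamate and GABA receptor genes 14 and 2. A gene can pass the filter through the EB libraries alone, and 45 of 92 potassium channel genes passed. With a mean of at least 1 CPM required of a gene, 14 of 24 tested potassium channel genes, 13 of 18 calcium and sodium channel genes and 8 of 12 glutamate and GABA receptor genes were higher, beside 21.5% of all 13007 genes tested under that filter, which a gene can still pass through the EB libraries alone. Scn3a, a voltage-gated sodium channel, fell from 7.78, 12.8 and 13.8 to 0.214, 0.537 and 0.142 CPM (log2 -5.23; log2 -5.97 without EB library 2). Solute carriers were split, 77 higher and 43 lower of 260, or 29.6% and 16.5% beside 24.0% and 10.8% of all genes tested. Slc40a1, the iron exporter ferroportin, rose from 0.931, 0.934 and 0.969 to 126, 112 and 89.2 CPM (log2 6.84, SE 0.19, adjusted p = 3.5e-07). Tfrc, the transferrin receptor of iron uptake, fell from 679, 732 and 782 to 353, 390.3 and 381 CPM (log2 -0.96, SE 0.11, adjusted p = 0.00012). Car2, a cytosolic carbonic anhydrase, rose from 14.3, 9.86 and 9.05 to 588, 536 and 554 CPM (log2 5.66, SE 0.20, adjusted p = 6.5e-07), beside its membrane-bound relative Car4, which had 0 counts in mESCs and 107, 110.1 and 140.1 CPM in EBs.

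Many genes of mitochondrial energy metabolism fell by small amounts. Of 86 OXPHOS subunit genes encoded in the nucleus 60 were lower at an adjusted p below 0.05 and 3 higher, beside a background of 26.3% and 33.1%, with a median of -0.69. The count was 33 without EB library 1 and 33 without EB library 2. Their share of gene counts was 1.89%, 1.38% and 1.34% in the mESC libraries and 0.996%, 1.02% and 1.21% in the EB libraries. Uqcr10, a complex III subunit, fell from 216, 117 and 113 to 56.5, 57.2 and 72.3 CPM (log2 -1.26, SE 0.26, adjusted p = 0.003). All 7 mitochondrially encoded genes of this family that passed the filter, of 13, fell by at least 2-fold, and their share went from 1.43%, 1.71% and 1.66% to 0.753%, 0.388% and 0.177%. The other 6 had at most 1 count over the libraries of a group, so the share covers only part of the mitochondrial transcripts. mt-Co1, a complex IV subunit, stood at 5079, 6583 and 6228 CPM in mESCs and 2859, 1275 and 645 CPM in EBs (log2 -1.90, SE 0.47, adjusted p = 0.0079; log2 -2.63 without EB library 1), and the 3 EB libraries differed more from each other than the mESC libraries did. On the oxidative metabolism list, which is not limited to enzymes of the TCA cycle, 11 of 21 genes were lower and 1 higher by the adjusted p alone. Idh1, the cytosolic isocitrate dehydrogenase, fell from 296, 247 and 245 to 74.7, 69 and 82.5 CPM (log2 -1.80, SE 0.13, adjusted p = 8.2e-06). Suclg2, the GTP-forming succinyl-CoA ligase subunit, rose from 9.16, 10.1 and 9.73 to 53.8, 52.5 and 54.4 CPM (log2 2.47, SE 0.11, adjusted p = 1.1e-06). Mitochondrial ribosomal proteins had 37 of 76 lower and 1 higher by the adjusted p alone, and 2 lower and 1 higher by a 2-fold call.

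Genes that make sterols, fatty acids and serine-derived metabolites fell. Of 25 genes of cholesterol and fatty acid synthesis 21 were lower at an adjusted p below 0.05 and 0 higher, 8 of them by a 2-fold call, and their share of counts went from 0.603%, 0.791% and 0.792% to 0.384%, 0.380% and 0.398%. Scd2, a stearoyl-CoA desaturase, fell from 1763, 2197 and 2214 to 477, 516 and 439.7 CPM (log2 -2.11, SE 0.14, adjusted p = 6e-06). Its paralogue Scd1 fell from 363, 531 and 517 to 43.6, 43 and 56.1 CPM (log2 -3.30, SE 0.19, adjusted p = 3.4e-06). Srebf1, a regulator of lipid synthesis, stood at 202, 211 and 207 CPM in mESCs and 67.5, 60.5 and 58 CPM in EBs (log2 -1.74, SE 0.11, adjusted p = 4.1e-06). Abca1, the cholesterol exporter, fell from 47.8, 95.4 and 94.1 to 3.04, 2.59 and 1.74 CPM (log2 -5.01, SE 0.34, adjusted p = 7e-06). Mttp, which loads lipid onto apolipoprotein B, rose from 2.57, 1.98 and 1.9 to 31.1, 22.3 and 31.4 CPM (log2 3.71, SE 0.21, adjusted p = 2.7e-06). Of 17 genes of serine, glycine and threonine metabolism 12 were lower and 1 higher by the adjusted p. Tdh, the threonine dehydrogenase on which mESCs depend, fell from 533, 463 and 452 to 119, 128 and 129 CPM (log2 -1.95, SE 0.11, adjusted p = 3.4e-06). Shmt2, the mitochondrial serine hydroxymethyltransferase, fell from 310.3, 315 and 307 to 108, 117 and 118 CPM (log2 -1.44, SE 0.10, adjusted p = 7e-06). In glycolysis, hexokinase Hk2 fell from 541, 699.6 and 676 to 262, 234 and 215 CPM (log2 -1.43, SE 0.14, adjusted p = 5.2e-05). The glucose transporter Slc2a1 rose from 409, 425 and 409.9 to 1337, 1107 and 1223 CPM (log2 1.56, SE 0.11, adjusted p = 1.1e-05). The redox list had 8 of 20 lower and 3 higher: Nqo1, a quinone reductase, fell from 106, 99.4 and 88.2 to 9.12, 9.84 and 13.1 CPM (log2 -3.19, SE 0.17, adjusted p = 2.1e-06). Sod2, mitochondrial superoxide dismutase, fell from 339, 302 and 297 to 53.2, 63 and 63.2 CPM (log2 -2.39, SE 0.12, adjusted p = 1.8e-06).

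Cell cycle genes moved in both directions. Of 34 genes 7 were higher and 6 lower by a 2-fold call, or 20.6% and 17.6% beside 24.0% and 10.8% of all genes tested. By the adjusted p alone 9 were higher and 14 lower, beside a background of 33.1% and 26.3%. The median was -0.26. Ccnd2, cyclin D2, rose from 2.23, 3.21 and 3.24 to 22.9, 37.9 and 23.9 CPM (log2 3.29, SE 0.26, adjusted p = 1.6e-05). Ccnd1 fell from 226, 250.3 and 265 to 104, 116 and 111 CPM (log2 -1.16, SE 0.11, adjusted p = 4.2e-05). Rb1, the retinoblastoma gene, rose by 2.21 and Cdkn2a, a kinase inhibitor locus, fell by 2.60. Of 24 DNA replication genes 16 were lower by the adjusted p, 1 of them by a 2-fold call, Tk1 (thymidine kinase) at 82.1, 64.9 and 68.9 CPM in mESCs and 26.8, 31.7 and 35.5 CPM in EBs (log2 -1.20, SE 0.15, adjusted p = 0.00018). With library totals in place of TMM 10 replication genes were lower. Among p53 targets 7 of 22 were higher and 0 lower by a 2-fold call, 31.8% higher beside 24.0% of all genes tested. By the adjusted p alone 13 were higher and 3 lower. The proapoptotic gene Pmaip1 (NOXA) stood at 3.13, 2.99 and 2.99 CPM in mESCs and 82, 61.7 and 61.3 CPM in EBs (log2 4.49, SE 0.17, adjusted p = 6.9e-07). Perp rose from 5.18, 3.85 and 3.96 to 102, 80.6 and 65.2 CPM (log2 4.25, SE 0.22, adjusted p = 1.8e-06). Bbc3 (PUMA) rose from 17.6, 14.3 and 15.7 to 63.6, 54.9 and 72.7 CPM (log2 2.00, SE 0.15, adjusted p = 1.1e-05). Cdkn1a (p21), the best known p53 target, fell from 168, 165 and 182 to 114, 102 and 89 CPM (log2 -0.75, SE 0.12, adjusted p = 0.00087). In the BCL2 family Bcl2l11 (BIM), a proapoptotic member, rose from 6.59, 8.78 and 8.04 to 114, 80.5 and 74.3 CPM (log2 3.52, SE 0.21, adjusted p = 3.5e-06). Bcl2, the antiapoptotic member, rose from 0.596, 0.56 and 0.253 to 11.5, 7.69 and 9.65 CPM (log2 4.32, SE 0.30, adjusted p = 8.5e-06).

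Genes of protein folding, stress and turnover fell in part. Of 19 unfolded protein and heat shock genes 11 were lower and 0 higher by the adjusted p. Hsp90aa1, the inducible HSP90 chaperone, stood at 4723, 3610 and 3516 CPM in mESCs and 2027, 2021 and 2078 CPM in EBs (log2 -0.95, SE 0.14, adjusted p = 0.00059). Sdf2l1, a chaperone cofactor of the endoplasmic reticulum, fell from 67.1, 48 and 43.9 to 16.2, 16.8 and 21.8 CPM (log2 -1.54, SE 0.20, adjusted p = 0.00023). ATF4 targets were split. Asns (asparagine synthetase) fell from 872, 725 and 714 to 279, 272 and 264 CPM (log2 -1.50, SE 0.12, adjusted p = 1.7e-05). Ddit4, an inhibitor of mTORC1, rose from 17.1, 16.8 and 17.7 to 252, 235 and 302 CPM (log2 3.94, SE 0.14, adjusted p = 5.4e-07). Lysosomal genes were split as well: Laptm5, a lysosomal membrane protein, fell from 117, 174 and 165 to 2.68, 2.79 and 1.56 CPM (log2 -6.02, SE 0.27, adjusted p = 1.1e-06), the lysosomal regulator Tfeb from 90.3, 72.5 and 67.6 to 5.4, 4.97 and 3.44 CPM (log2 -4.06, SE 0.21, adjusted p = 1.9e-06), and the protease gene Lgmn rose by 1.44 in log2. Of 87 cytosolic ribosomal protein genes 0 were higher and 9 lower by the adjusted p, and their share of counts overlapped between groups (exact permutation p = 1.0). The largest fall was that of Rpl10l, from 77, 46.7 and 46.2 to 4.83, 4.16 and 4.36 CPM (log2 -3.67, SE 0.23, adjusted p = 5.3e-06), a near-identical copy of Rpl10 with which it can share reads, so its value is uncertain. Among initiation factors Eif4g3 rose from 4.24, 5.04 and 4.25 to 96.2, 125 and 90.4 CPM (log2 4.52, SE 0.18, adjusted p = 7.8e-07), while Eif2s2, a subunit of eIF2, fell by 1.15 in log2.

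Antigen presentation genes rose. All 13 tested genes of the immunoproteasome and MHC class I pathway were higher by the adjusted p, and 11 by a 2-fold call. Tap1, a subunit of the peptide transporter, rose from 0.298, 0.187 and 0.253 to 26.3, 21.7 and 20.5 CPM (log2 6.51, SE 0.23, adjusted p = 5.5e-07). B2m (beta-2 microglobulin) rose from 14.9, 9.94 and 9.69 to 86.5, 66.1 and 71.5 CPM (log2 2.70, SE 0.20, adjusted p = 1.2e-05). The immunoproteasome subunit Psmb10 stood at 26.4, 12.2 and 13.5 CPM in mESCs and 65.9, 60.6 and 67 CPM in EBs (log2 1.89, SE 0.28, adjusted p = 0.00051). Psmb8 had 0 counts in mESCs and 40.6, 35.4 and 35 CPM in EBs. Interferon-stimulated genes were split, 5 higher and 3 lower of 14. Irf1, an interferon regulatory factor that acts on these genes, rose from 39.7, 33.8 and 38.7 to 179, 156 and 159 CPM (log2 2.14, SE 0.12, adjusted p = 2.7e-06). Irf9, another interferon regulatory factor, fell from 12.1, 11.6 and 12.3 to 4.75, 4.43 and 3.19 CPM (log2 -1.54, SE 0.18, adjusted p = 0.00013). The immune cell marker Ptprc (CD45) had 1 count over the EB libraries and 0 in mESCs.

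Chromatin genes differed by list in how many were called. Of 30 Polycomb genes 4 were higher and 3 lower by a 2-fold call. By the adjusted p alone 12 were higher and 8 lower, beside 33.1% and 26.3% of all genes tested. Of 20 genes that write or erase H3K36 and H3K4 methylation 1 was higher and 0 lower. That gene was Nsd2, an H3K36 methyltransferase and paralogue of the tagged NSD1, at 63.9, 87.8 and 87.7 CPM in mESCs and 208, 227 and 178 CPM in EBs (log2 1.36, SE 0.16, adjusted p = 0.00015). The tagged gene Nsd1 was at 177, 359 and 352 CPM in mESCs and 251, 229 and 199 CPM in EBs in this scaling and was not called (log2 -0.39, SE 0.25, adjusted p = 0.22), the values of the groups overlapped, and the lowest came from mESC library 1. Without that library its log2 fold change was -0.68 (adjusted p = 0.00064). Epop, an Elongin-binding partner of Polycomb, fell from 547, 388 and 392 to 104, 95.6 and 102 CPM (log2 -2.14, SE 0.16, adjusted p = 1.1e-05). Phf19, a Polycomb-like protein that binds H3K36 methylation, rose from 1.08, 2.13 and 1.35 to 29.3, 35.9 and 21.2 CPM (log2 4.24, SE 0.30, adjusted p = 8.5e-06). Eed, a core PRC2 subunit, fell from 397, 289 and 283 to 135, 134 and 144 CPM (log2 -1.23, SE 0.15, adjusted p = 0.00018). The DNA methylation genes were split, 4 higher and 4 lower of 14: Dnmt3a rose from 8.56, 10.6 and 12.8 to 117, 111 and 161 CPM (log2 3.60, SE 0.21, adjusted p = 3.5e-06), its cofactor Dnmt3l by 1.44 in log2, and the dioxygenase Tet3 by 2.08 in log2, while Tet1 fell from 278, 660.2 and 633 to 203, 196 and 121 CPM (log2 -1.60, SE 0.34, adjusted p = 0.0038) and Tet2 from 67, 164 and 161 to 16.2, 18.3 and 10.8 CPM (log2 -3.11, SE 0.37, adjusted p = 0.00015). Smarcd3, a BAF subunit, fell from 38.8, 34.3 and 30.0 to 0.786, 1.14 and 0.957 CPM (log2 -5.15, SE 0.19, adjusted p = 6.9e-07). H2afz, the histone variant H2A.Z, fell by 1.39 in log2.

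Of 37 tested imprinted genes 19 were higher and 3 lower. Paternally expressed genes had 14 of 22 higher, with Peg3, a zinc finger gene, at 25.5, 43.9 and 45 CPM in mESCs and 327, 349 and 123 CPM in EBs (log2 2.80, SE 0.41, adjusted p = 0.00047). Sgce rose from 2.76, 2.02 and 2.36 to 32.2, 32.4 and 31.5 CPM (log2 3.75, SE 0.15, adjusted p = 8.3e-07). Dlk1, a growth regulator, rose from 0.223, 0.299 and 0.168 to 3.18, 3.69 and 3.58 CPM (log2 3.88, SE 0.27, adjusted p = 8.5e-06). Peg10 and Peg3 were both lowest in EB library 3. Among maternally expressed genes 5 of 15 were higher: H19, a long noncoding RNA, had 0 counts in mESCs and 10.5, 10.2 and 9.04 CPM in EBs, at least 257-fold higher, and Cdkn1c (p57) rose from 9.05, 7.36 and 7.29 to 55.2, 53.5 and 53.4 CPM (log2 2.77, SE 0.13, adjusted p = 1.3e-06). Igf2, the reciprocally imprinted neighbour of H19, also had 0 counts in mESCs and reached 6.79, 7.25 and 3.4 CPM, at least 151-fold higher. Mest depended on the baseline: it stood at 0.782, 0.486 and 0.463 CPM in mESCs and 2.79, 3.83 and 2.7 CPM in EBs (log2 2.41, SE 0.29, adjusted p = 0.00017), but the log2 fold change was -3.28 against wild-type mESCs. Which allele was read was not measured.

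Of 23 tested noncoding RNA genes 6 were higher and 6 lower, or 26.1% each beside 24.0% and 10.8% of all genes tested. Platr3, a pluripotency-associated transcript, fell from 42.4, 21.7 and 24.1 to 3.5, 4.33 and 4.29 CPM (log2 -2.86, SE 0.28, adjusted p = 4.9e-05). Ftx, a regulator at the X inactivation centre, rose from 1.64, 1.42 and 1.81 to 11.6, 9.6 and 8.83 CPM (log2 2.62, SE 0.19, adjusted p = 9.8e-06). Celf2, a splicing regulator, rose from 2.42, 2.02 and 1.98 to 31.3, 26.7 and 22.1 CPM (log2 3.64, SE 0.19, adjusted p = 1.9e-06), Cpeb1, a regulator of poly(A) tails, by 3.40 in log2, and Nova2, a neuronal splicing regulator, fell by 2.76. The machinery that dTAG-13 would use was present in both groups: Crbn (cereblon) stood at 39.3, 43.3 and 43.5 CPM in mESCs and 57.8, 53.9 and 57.6 CPM in EBs and Cul4a, a scaffold of its ligase, at 47.1, 54.2 and 53.7 CPM in mESCs and 105, 105 and 106 CPM in EBs (log2 1.03, SE 0.10, adjusted p = 6.3e-05).

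To compare sizes between genes, levels were divided by exon length. Per kilobase of exon, the largest gains in EBs were those of Eef2, the translation elongation factor, from 1435 ± 143 to 2100 ± 150.0 CPM per kb (mean ± SD, n = 3 each), and of Peg10, from 10.5 ± 2.36 to 282 ± 102 CPM per kb. Next came Slc2a1, from 118 ± 2.52 to 349 ± 32.8, Car2, from 4.57 ± 1.16 to 231 ± 10.9, and Krt18, from 2.48 ± 0.569 to 167 ± 59.3 CPM per kb. Of the 15 genes with the largest gains, Utf1, Dnmt3b, Pim2, Ddit4, Krt8, Actg1, Igfbp2, Cldn6, Bst2 and a gene ID whose symbol another ID shares, which was not called, followed, and the 15 held 0.732%, 0.816% and 0.775% of gene counts in mESCs and 1.91%, 1.70% and 1.73% in EBs. The largest losses were mitochondrial: mt-Nd1, a complex I subunit, went from 4023 ± 280.3 to 722 ± 475 and mt-Co1 from 3860 ± 509 to 1031 ± 738 CPM per kb. Outside the mitochondrial genome the largest losses that were called were those of Dppa5a, an RNA-binding gene of mESCs, from 1699 ± 651 to 739 ± 57.4, and Hsp90aa1, from 1005 ± 171 to 519 ± 7.93 CPM per kb. The part of library preparation in these losses was not tested.

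**Figure D4:**
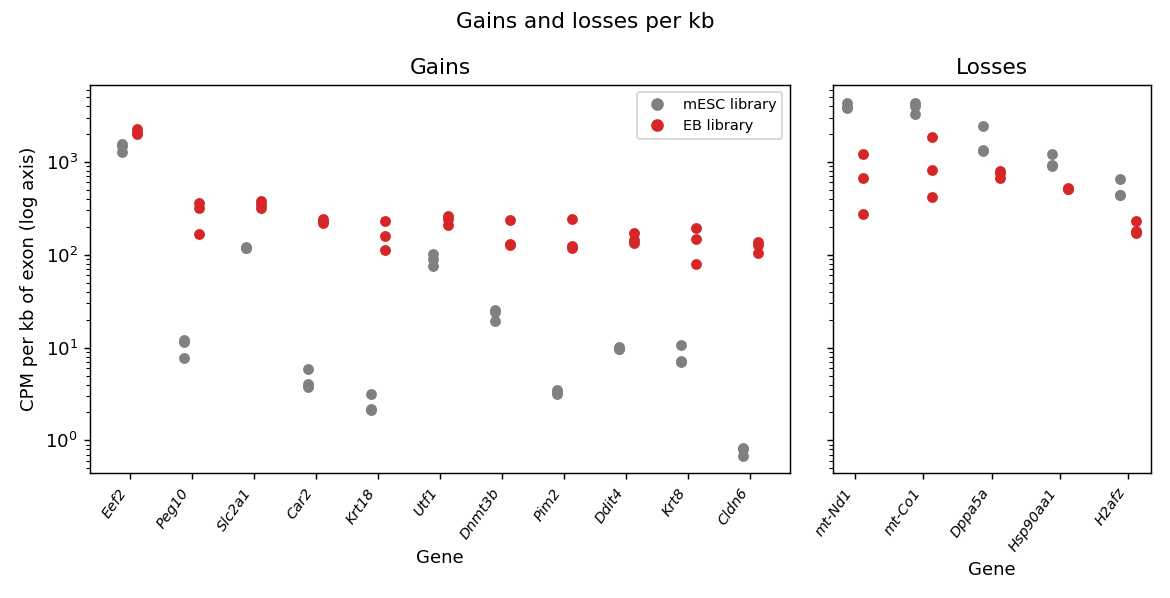
Level per kilobase of exon (CPM per kb, log axis) of 11 genes among the largest gains (left) and 5 among the largest losses (right) per kb, each point 1 library, mESC libraries in grey and EB libraries in colour. Points of the 2 groups are apart for the gains, and the mitochondrial genes spread most among EB libraries.

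Promoters of the genes that moved held fewer CG dinucleotides than those of the rest. RefSeq promoters of the GRCm38.p6 assembly, 250 bases before to 50 bases after each start, matched 10954 of the genes tested. The median count of CG was 19.5 in 2672 promoters of genes higher by a 2-fold call, 13 in 1101 of genes lower and 22.0 in the other 7181. Fewer than 5 CG were found in 9.73%, 18.3% and 4.14% of them, and in 6.92% of all. At a 4-fold threshold the shares were 10.8% for higher and 28.2% for lower genes. The letters TATAAA, on the strand of the gene within 50 bases before the start, were found in 2.02% of promoters of higher genes, 2.09% of lower genes and 1.33% of all. The 250 bases before the start are shown for 6 genes described above, chosen after their values were seen, to set CG-rich beside CG-poor promoters in both directions, with every CG in capitals. Fgf5 and Lhx1 rose and hold 24 and 26 CG in these bases, at chr5:98253934-98254183 (plus strand) and chr11:84525535-84525784 (minus strand):
Fgf5: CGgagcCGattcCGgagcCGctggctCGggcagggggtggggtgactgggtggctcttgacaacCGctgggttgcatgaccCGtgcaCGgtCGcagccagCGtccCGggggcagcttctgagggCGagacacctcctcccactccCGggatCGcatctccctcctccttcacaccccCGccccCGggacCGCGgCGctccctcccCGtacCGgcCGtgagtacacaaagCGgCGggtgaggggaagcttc
Lhx1: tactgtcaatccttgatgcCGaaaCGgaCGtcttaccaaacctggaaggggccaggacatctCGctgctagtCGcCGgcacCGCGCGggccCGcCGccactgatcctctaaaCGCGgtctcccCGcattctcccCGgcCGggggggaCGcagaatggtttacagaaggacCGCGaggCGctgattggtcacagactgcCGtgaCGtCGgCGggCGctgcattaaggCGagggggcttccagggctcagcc
Dab2 and Afp rose and hold 2 and 1 CG, at chr15:6299539-6299788 and chr5:90490464-90490713 (both plus strand), and Afp has a TATAAA, in lower case here, near its start:
Dab2: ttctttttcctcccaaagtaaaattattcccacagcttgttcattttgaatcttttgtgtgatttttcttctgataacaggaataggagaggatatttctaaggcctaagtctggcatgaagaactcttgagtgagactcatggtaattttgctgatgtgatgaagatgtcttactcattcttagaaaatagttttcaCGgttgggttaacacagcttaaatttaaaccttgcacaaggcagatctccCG
Afp: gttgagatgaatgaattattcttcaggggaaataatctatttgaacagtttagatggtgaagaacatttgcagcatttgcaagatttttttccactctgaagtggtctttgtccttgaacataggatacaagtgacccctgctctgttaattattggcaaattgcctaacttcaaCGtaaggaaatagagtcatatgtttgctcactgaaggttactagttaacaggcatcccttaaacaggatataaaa
Klf4 fell with 32 CG and Krt42 fell with 2 CG, at chr4:55532476-55532725 and chr11:100269952-100270201 (both minus strand):
Klf4: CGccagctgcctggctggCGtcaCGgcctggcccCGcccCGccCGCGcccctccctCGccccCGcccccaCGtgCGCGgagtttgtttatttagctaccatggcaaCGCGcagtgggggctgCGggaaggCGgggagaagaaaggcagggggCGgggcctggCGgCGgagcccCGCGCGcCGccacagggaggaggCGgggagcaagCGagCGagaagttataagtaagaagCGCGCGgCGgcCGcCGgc
Krt42: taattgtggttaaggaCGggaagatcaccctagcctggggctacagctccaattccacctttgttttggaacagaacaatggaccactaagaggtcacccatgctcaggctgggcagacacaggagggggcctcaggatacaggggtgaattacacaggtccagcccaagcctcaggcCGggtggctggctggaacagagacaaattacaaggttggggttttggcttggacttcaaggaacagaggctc
CG-rich and CG-poor promoters stood on both sides of the comparison. A match to letters describes the sequence only, and no methylation or binding was measured in these libraries.

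**Figure D5:**
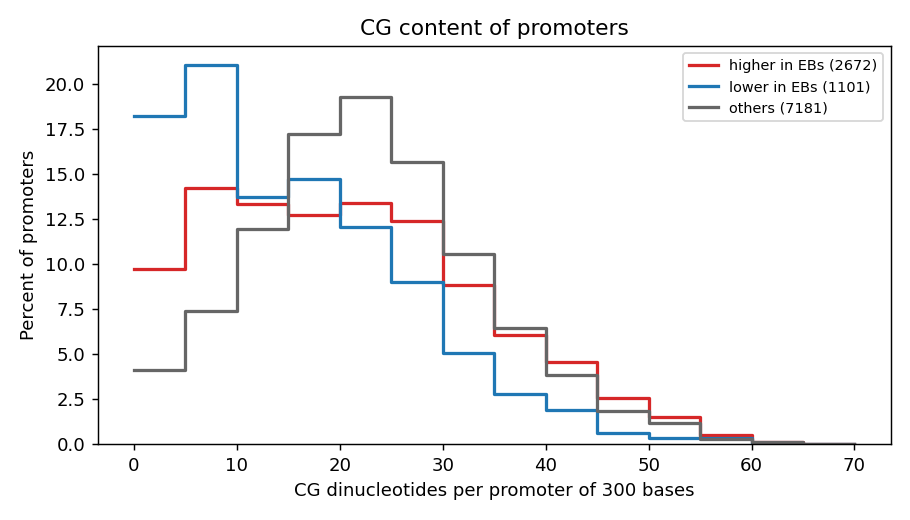
Distribution of the number of CG per 300 base RefSeq promoter, as percent of promoters in bins of 5, for genes higher in EBs by a 2-fold call (2672), lower (1101) and the others (7181). The lower genes have the largest share with fewer than 5 CG, 18.3%.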

How the data were processed

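RNA was measured by bulk poly(A) RNA-seq with a strand-specific kit, per the labels' protocols. The authors deposited 1 table of whole-number counts per gene and library, with ERCC spike-in rows, and their values are raw counts, per the file headers and values. Among tools, bcl2fastq 2.20.0.422, DESeq2 1.30.0 and STAR are listed, per the submitters' processing notes, which also list mm10 and GRCm38.p6 as builds. How reads were assigned to genes and strands is not given in the sources here, so reads of a gene and of an overlapping gene on the other strand may not be told apart; this touches 223 of the 775 genes open to naming. Of 55471 gene IDs 55230 matched GENCODE M21, from which names and exon lengths were taken. The 92 ERCC rows were left out of library sizes.

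The 6 libraries were compared by edgeR 4.0.16, run under R 4.3.3 (filterByExpr, TMM, quasi-likelihood F test, Benjamini-Hochberg over the 15193 genes that passed the filter). Their depth ranged from 24562484 to 29103958 gene counts. Adjusted p below 0.05 made a call. SE is the absolute log2 fold change over the root of F. Gene groups are 54 lists by function and 72 families by symbol, given as counts and medians with no test. Of their 4240 genes 2995 were tested, 1239 were below the filter and 6 did not match. The members and lists were chosen with earlier results of these data known. Genes named come from a rule over each list (its leading members, those called with the largest change at a mean of at least 1 CPM, and those not called with the highest level), over each family (the 3 largest rises and falls) and over all genes (the 15 largest gains and losses per kb); genes below the filter were named as markers. A gene with 0 counts in a group has its fold computed against 3 counts over that group, and a gene with 1 to 3 counts has a ratio with its exact 95% counting interval, both for counting error only. Shares of counts were compared by an exact permutation test, two-sided, where 3 against 3 cannot go below 0.1. Alternatives were DESeq2 1.42.0, limma-voom (limma 3.58.1), other scalings and filters, a gene-length offset, the replicate number as a block, all 5 groups in 1 fit, wild-type mESCs as baseline and leaving out each library; leaving out both libraries that stand apart was added after seeing the data.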

Additional observations from a re-analysis of the deposited data

How the results depend on the processing

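The totals of genes called, at either rule and in either direction, stayed within 1.5 times of the values given under all alternatives run. Called genes numbered 9918 with DESeq2 and 8987 with limma-voom. Leaving out 1 library gave 4577 to 5416 genes higher and 3141 to 4753 lower. With a mean of at least 1 CPM required of a gene, 4 HOX and CDX genes were lower, 18 collagens were higher and 14 potassium channels were higher by a 2-fold call, since fewer genes were tested. OXPHOS genes called lower numbered 33 to 68 when 1 library was left out, and DNA replication genes called lower numbered 10 with library totals alone; the cause was not tested. The share of promoters with fewer than 5 CG was 28.2% for genes lower by 4-fold. Mest went to -3.28 against wild-type mESCs; the cause was not tested. Nsd1, not called, was called lower under 5 alternatives, at -0.58 to -0.72. Crbn lost its call with the replicate block and a gene-length offset together (0.25, adjusted p = 0.092).

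The replicate numbers were checked for a pairing of the samples. Libraries 1, 2 and 3 of the 2 groups had correlations of their deviations of -0.33, 0.26 and -0.45, and not every library correlated best with its own number. The largest correlation, 0.48, was between mESC library 1 and EB library 3, the libraries that stand apart. With 1 such library in each group of 3, the check cannot decide whether libraries of the same number were paired. With the number as a replicate block 4682 genes were higher and 3317 lower. Stage, medium and library preparation cannot be told apart, and 3 libraries a group allow no exact permutation p below 0.1.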
